A study of Mus musculus with 12 samples.

Results

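The genes described here are 10 members of the machinery that loads peptides onto MHC class I in the endoplasmic reticulum, together with its transcriptional activator: NLRC5, TAP1, TAP2, TAPBP, TAPBPL, ERAP1, B2M, CALR, CANX and PDIA3. They were chosen by symbol, with earlier results of these data known. All 10 were found among the 23636 symbols of the table and passed the filter on low values. RNA sequencing was performed on CT26, a mouse colon carcinoma cell line, in 4 groups of 3 biological replicates. Cells received no agent (No treatment), recombinant CX3CL1 at a dose of 2 µg/ml, IFN-γ at a dose of 100 ng/ml, or both (CX3CL1+IFN-γ), for 8 hours. CX3CL1 is the chemokine ligand of the receptor CX3CR1, IFN-γ is the inflammatory cytokine made by activated T and NK cells, and all groups were the same cultured line. The labels name no other agent, whereas the study's text also speaks of TNF-α beside IFN-γ and of CX3CL1 given after the cytokines, so the order of addition and the presence of TNF-α in these libraries are not settled here.

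MHC class I molecules display peptides from inside the cell to CD8+ T cells. The proteasome cuts proteins into peptides, the TAP transporter carries these into the endoplasmic reticulum, ERAP1 trims them, and a loading complex of tapasin, calreticulin and ERp57 fits them onto a heavy chain paired with β2-microglobulin. IFN-γ is known to raise this pathway, and NLRC5 acts at the promoters of class I genes.

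Expression is given as TPM, a transcript level scaled to gene length and to a fixed total of 1000000 in each library, so it carries no read depth. The number of symbols at 1 TPM or more ran from 10613 to 10824, and Pearson correlations between replicates of log2(TPM + 1) over the genes tested ran from 0.984 to 0.996, with CX3CL1 replicate 2 the least alike. Of 11 leukocyte markers, CD3E and NCR1 were listed at 0 in all 12 libraries and CD68 alone reached 1 TPM in all of them, and the sum of the list ran over 10.2–17.9 TPM in No treatment, 9.05–22.3 in CX3CL1, 10.6–23.5 in IFN-γ and 11.1–34.2 in CX3CL1+IFN-γ. Of 7 epithelial and tumor line markers, EPCAM was listed at 0 in every library, while KRT18, KRT20 and VIM exceeded 1 TPM in all of them. The sum of that list was 3722–4891 TPM in No treatment, 3114–3911 in CX3CL1, 2464–3590 in IFN-γ and 1717–3163 in CX3CL1+IFN-γ. KRT18, a keratin, was the 1 marker of either list that passed the test, lower with IFN-γ than in No treatment (log2 fold change -0.68, adjusted p = 0.0346). Nearly all of the sum was VIM, the mesenchymal filament gene, at 4174 ± 599 TPM in No treatment and 2899 ± 583 with IFN-γ (SD, n = 3), so the sum follows that gene. KRT18 lost the call without No treatment replicate 2 or 3 or without any 1 of the IFN-γ libraries (adjusted p up to 0.164), and the part of these shifts in the results below was not tested. In bulk RNA, fewer cells of a type and less RNA per cell cannot be told apart.

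Promoter windows from RefSeq (GRCm38.p6, 250 bases before to 50 after the gene start) were held for 7 of the 10 genes: B2M, CALR, CANX, ERAP1, PDIA3, TAP1 and TAPBP. The 250 bases upstream of B2M, the most abundant member that rose with IFN-γ, are shown beside those of CANX, which passed the test in no comparison. They lie at chr2:122147437-122147686 (plus strand) and chr11:50325674-50325923 (minus strand), and capitals mark matches to the motifs searched.
B2M: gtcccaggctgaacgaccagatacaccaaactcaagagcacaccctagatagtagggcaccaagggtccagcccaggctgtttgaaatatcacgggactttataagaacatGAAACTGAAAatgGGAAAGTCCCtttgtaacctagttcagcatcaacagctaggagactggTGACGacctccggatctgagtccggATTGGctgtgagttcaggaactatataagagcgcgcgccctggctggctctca
CANX: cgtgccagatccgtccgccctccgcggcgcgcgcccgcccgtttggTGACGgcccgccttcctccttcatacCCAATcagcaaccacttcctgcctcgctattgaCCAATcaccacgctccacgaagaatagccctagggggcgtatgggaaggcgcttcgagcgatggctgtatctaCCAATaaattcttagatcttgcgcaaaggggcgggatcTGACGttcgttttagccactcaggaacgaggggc
In the B2M window, the first capitals are the core of the interferon-stimulated response element (ISRE), which is GAAA, any 2 bases and GAAA, at -139 to -130 from the start. The next are an NF-kB consensus at -126 to -117, then a CRE core, TGACG, at -78 to -74 and a CCAAT box, read on the other strand, at -53 to -49. The CANX window held 3 CCAAT boxes and 2 CRE cores, and neither an ISRE core nor an NF-kB match.

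Both strands of the 7 windows were searched, and no match overlapped another. The ISRE core was in 2 of 7 windows, in B2M and, across the start itself, in ERAP1, against 3.49% of all 27025 windows. The NF-kB consensus was in 1 of 7, against 4.35% of all windows. CCAAT boxes were in 6 of 7 windows and 37.9% of all, CRE cores were in 4 of 7 and 21.0% of all, and the interferon-gamma activated site (GAS), TTCNNNGAA, was in 0 of 7 and 8.47% of all. The windows of TAPBP and TAP1, which also rose with IFN-γ, held no ISRE core, NF-kB or GAS match, as was the case for CALR, CANX and PDIA3. These matches are a description of letters in the windows, and a link to the changes in level was not tested.

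**Figure D1:**
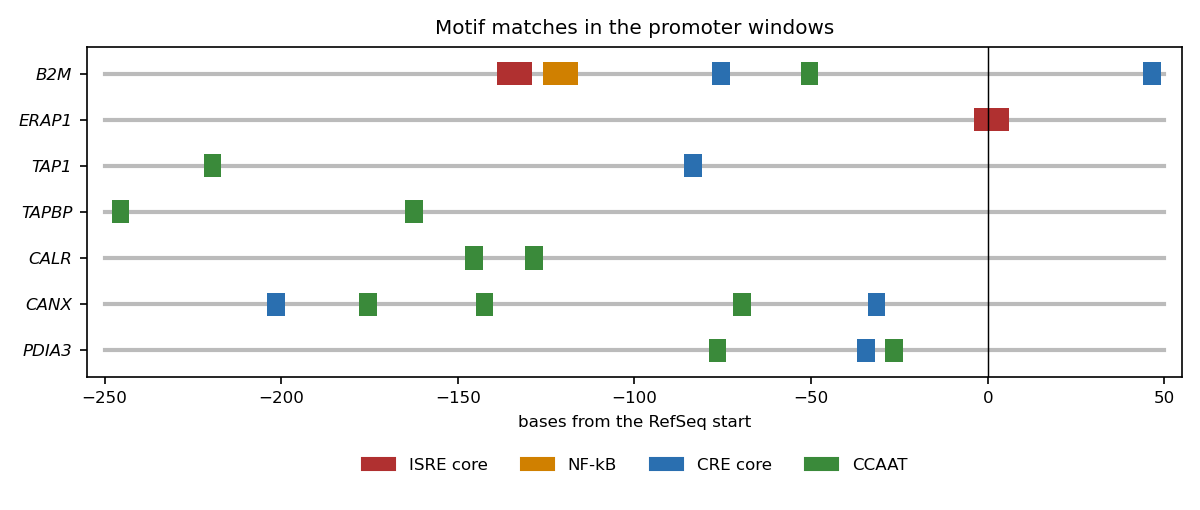
Motif matches in the promoter windows of 7 genes. The x axis gives the distance in bases from the RefSeq start, each grey line is a window, and the coloured boxes are matches on either strand. B2M has the 1 ISRE core that lies wholly upstream of a start, at -139 to -130.

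In GENCODE vM21 on GRCm38, which is the mm10 build the authors aligned to, 3 of the members lie within the MHC region on chromosome 17: TAPBP (17:33915899-33929292), TAP1 (17:34187553-34197225) and TAP2 (17:34203527-34216321). The immunoproteasome genes PSMB9 (17:34181987-34187764) and PSMB8 (17:34197721-34201454) flank TAP1. TAP1 and PSMB9 are read in opposite directions from RefSeq starts 226 bases apart. The RefSeq starts used for the promoter windows can differ from those of GENCODE. All 250 bases before the ERAP1 start lie in a GENCODE exon of ERAP1. The RefSeq start of TAPBP, 17:33919478, lies inside its GENCODE gene. Motif positions and absences in these windows therefore depend on the start used. The other members are on chromosomes 2 (B2M, PDIA3), 6 (TAPBPL), 8 (NLRC5, CALR), 11 (CANX) and 13 (ERAP1).

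With IFN-γ, 7 of the 10 genes rose over No treatment, and with CX3CL1 alone 1 rose, TAPBP. None of the 10 passed the test when CX3CL1 was added to IFN-γ. The 3 general chaperones of the endoplasmic reticulum, CALR, CANX and PDIA3, passed the test in none of these comparisons. A gene was called at an adjusted p under 0.05 in limma (Benjamini-Hochberg over the 11878 genes tested), and log2 fold changes were taken after adding 1 TPM, so that those of low genes such as NLRC5 are understated. Over all genes tested, 5.91% were called higher with IFN-γ than in No treatment and 1.78% were called higher with CX3CL1. For CX3CL1+IFN-γ against IFN-γ the share called higher was 0.345%, and against CX3CL1 it was 3.76%. The comparisons share libraries: No treatment is the control of both single agents, and the IFN-γ and CX3CL1 groups are each used again as the control of the combination.

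**Figure D2:**
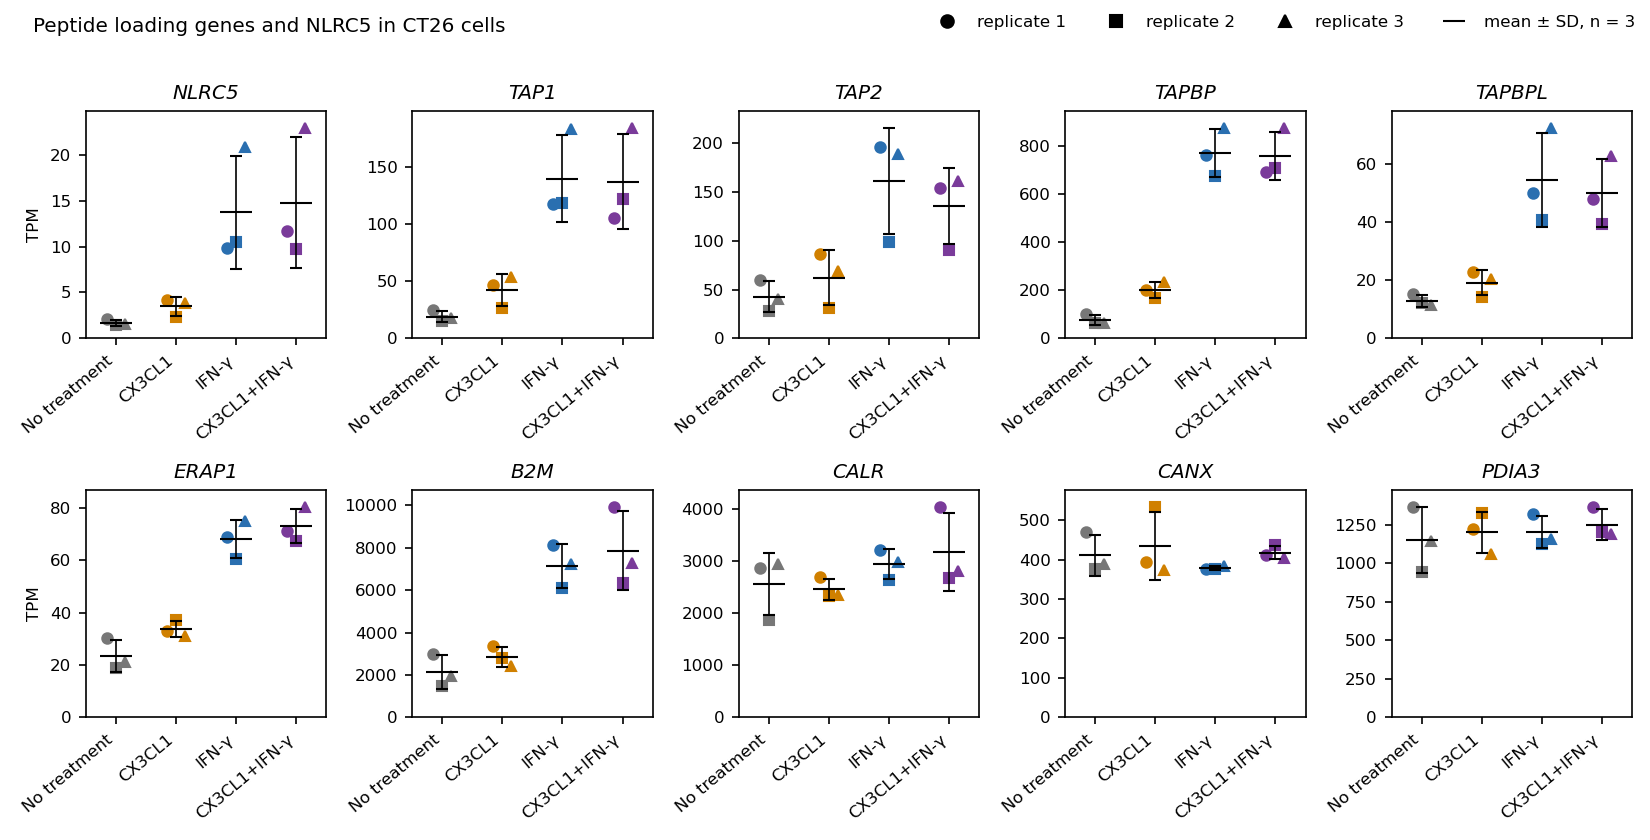
TPM of the 10 genes in each library of the 4 groups, with symbols for replicates 1, 2 and 3, and bars for the mean ± SD (n = 3). Each y axis starts at 0 and has its own scale. For the 7 genes that rose with IFN-γ, its libraries lie above No treatment, as in TAPBP at 673 to 872 against 63.6 to 99.4 TPM, while CALR, CANX and PDIA3 show no such gap.

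NLRC5, the NOD-like receptor family member that activates class I genes, had the lowest level of the 10 in every group. In No treatment its replicates 1, 2 and 3 had 2.07, 1.45 and 1.62 TPM, and with CX3CL1 they had 4.23, 2.33 and 3.88 TPM. With IFN-γ they had 9.85, 10.5 and 20.8 TPM, and with CX3CL1+IFN-γ 11.6, 9.74 and 22.9 TPM. All CX3CL1 libraries lay above all No treatment libraries, and the libraries of the IFN-γ groups lay above both, with replicate 3 far above the other two in each. The rise with IFN-γ was called (log2 fold change 2.37, SE 0.31, adjusted p = 2.9e-04), and the ratio of mean TPM was 7.996. With CX3CL1 alone the difference was 0.70 (95% interval 0.03 to 1.38), which did not pass the test (adjusted p = 0.576), although the ratio of mean TPM was 2.03.

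TAP1 and TAP2 are the subunits of the peptide transporter. TAP1 had 24.6, 15.1 and 17.7 TPM in No treatment and 47.0, 26.4 and 53.5 TPM with CX3CL1. It had 117, 118 and 183 TPM with IFN-γ, and 105, 122 and 184 TPM with CX3CL1+IFN-γ. All CX3CL1 libraries exceeded all No treatment libraries, the lowest of them narrowly, and both IFN-γ groups lay above both. The log2 rise with IFN-γ was 2.80 (SE 0.28, adjusted p = 3.4e-05). With CX3CL1 alone the log2 difference was 1.07 (95% interval 0.46 to 1.68, adjusted p = 0.0953), which did not pass. Without CX3CL1 replicate 2, the library least like the others, it was 1.37 with an adjusted p of 0.0198, and over all libraries left out in turn the adjusted p ran from 0.0198 to 0.379.

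TAP2 was higher than TAP1 in No treatment, with 59.6, 28.0 and 40.3 TPM against the TAP1 values above. With CX3CL1 it had 86.4, 30.9 and 69.3 TPM. It had 196, 98.6 and 189 TPM with IFN-γ and 154, 91.0 and 162 TPM with CX3CL1+IFN-γ. Replicate 2 was the lowest TAP2 library in all 4 groups, and the CX3CL1 and No treatment libraries overlapped. TAP2 rose with IFN-γ (log2 1.90, SE 0.39, adjusted p = 0.00894), and differed by 0.48 with CX3CL1 alone (95% interval -0.37 to 1.33, adjusted p = 1.00). GENCODE places 2 noncoding genes on the opposite strand across TAP2, and whether the counting used strand is not given in the sources used here.

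The ratio of TAP1 to TAP2, both scaled to length, was 0.464 ± 0.0671 (SD, n = 3) in No treatment and 0.724 ± 0.161 with CX3CL1. It was 0.923 ± 0.304 with IFN-γ and 1.052 ± 0.336 with CX3CL1+IFN-γ. The lowest CX3CL1 ratio, 0.544, was just above the highest of No treatment, 0.540, and replicate 1 had the lowest and replicate 2 the highest ratio in each group. No test was run on these ratios.

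**Figure D3:**
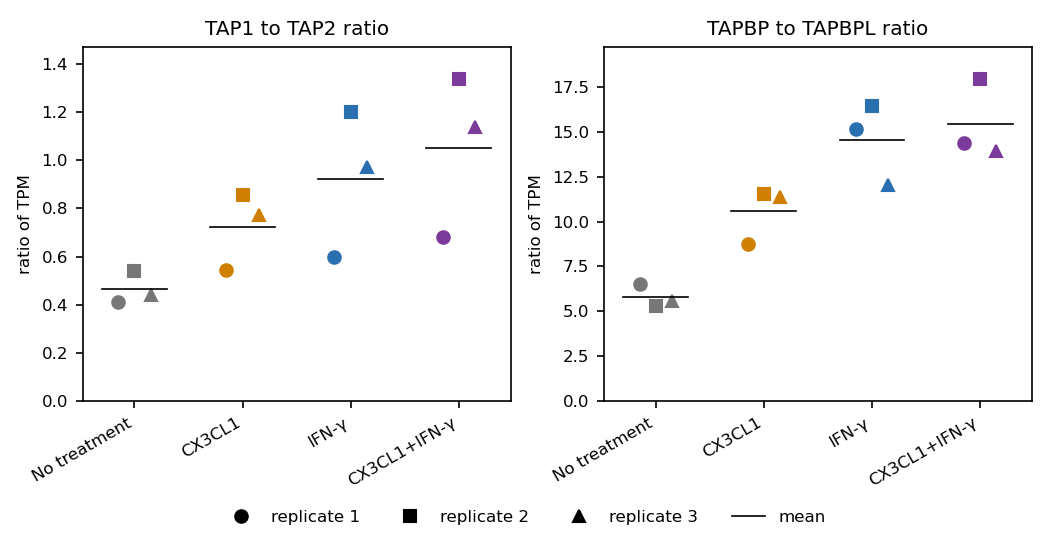
Ratio of TPM in each library of TAP1 to TAP2 (left) and TAPBP to TAPBPL (right), with the group mean as a line. Both axes start at 0. The TAPBP to TAPBPL ratio is 5.27 to 6.55 in No treatment, 8.77 to 11.5 with CX3CL1 and 12.03 to 17.9 with IFN-γ or CX3CL1+IFN-γ.

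TAPBP, tapasin, bridges TAP to class I molecules and edits their peptides. It had 99.4, 63.6 and 63.8 TPM in No treatment and 200.4, 166 and 234 TPM with CX3CL1. It had 760.0, 673 and 872 TPM with IFN-γ, and 689.7, 709 and 873 TPM with CX3CL1+IFN-γ. No treatment, CX3CL1 and IFN-γ did not overlap with each other, and CX3CL1+IFN-γ overlapped with IFN-γ. TAPBP was the member called with CX3CL1 alone (log2 1.41, SE 0.18, adjusted p = 0.00106), a 2.65-fold higher mean TPM. It was called in 12 of 12 fits that left out a library, at 1.29 to 1.62. Those without an IFN-γ or CX3CL1+IFN-γ library could change its error but not its estimate. With IFN-γ it rose by 3.35 (SE 0.18, adjusted p = 1.1e-06), a 10.2-fold higher mean and the largest rise among the 10. ZBTB22 overlaps TAPBP on the same strand by 3422 bases in GENCODE. Its level was 17.2 to 22.95 TPM over all libraries, and reads shared between the genes could not be separated here.

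TAPBPL, also called TAPBPR, is a tapasin relative that edits peptides outside the loading complex. It had 15.2, 12.1 and 11.4 TPM in No treatment, 22.9, 14.4 and 20.5 with CX3CL1, 50.1, 40.9 and 72.4 with IFN-γ, and 47.9, 39.5 and 62.7 with CX3CL1+IFN-γ. Both IFN-γ groups lay above the others, and a CX3CL1 library fell below the highest of No treatment. The log2 rise with IFN-γ was 1.97 (SE 0.23, adjusted p = 9.8e-05). With CX3CL1 alone the difference was 0.53 (95% interval 0.04 to 1.02, adjusted p = 0.542). The mean ratio of TAPBP to TAPBPL was 5.81 in No treatment, 10.6 with CX3CL1, 14.5 with IFN-γ and 15.4 with CX3CL1+IFN-γ. TAPBPL lies within VAMP1 on the opposite strand, and VAMP1 was at most 0.0206 TPM.

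ERAP1, the aminopeptidase that trims peptides in the endoplasmic reticulum, had 30.5, 18.9 and 21.3 TPM in No treatment and 33.1, 37.3 and 31.2 TPM with CX3CL1. With IFN-γ it had 68.9, 60.6 and 75.1 TPM, and with CX3CL1+IFN-γ 71.4, 67.6 and 80.4 TPM. The CX3CL1 libraries all lay above No treatment, the lowest of them by less than 1 TPM. The rise with IFN-γ was 1.52 on the log2 scale (SE 0.15, adjusted p = 3.7e-05). With CX3CL1 alone the difference of 0.53 (95% interval 0.19 to 0.86) did not pass the test (adjusted p = 0.158). It was 0.72 without No treatment replicate 1, the highest library of that group, with an adjusted p of 0.0107, and the adjusted p ran from 0.0107 to 0.596 over the libraries left out. ERAP1 shares 834 bases with CAST on the opposite strand, which was 99.2 to 137 TPM in all libraries.

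B2M, the light chain of every class I molecule, was among the most abundant members. It had 2994, 1457 and 1964 TPM in No treatment and 3347, 2796 and 2428 TPM with CX3CL1. It had 8146, 6083 and 7246 TPM with IFN-γ, and 9931, 6344 and 7303 TPM with CX3CL1+IFN-γ. Both IFN-γ groups were above all other libraries, and CX3CL1 and No treatment overlapped. B2M rose with IFN-γ by 1.80 (SE 0.25, adjusted p = 4.0e-04), from 0.214% ± 0.0783 to 0.716% ± 0.103 (SD, n = 3) of the library's TPM. With CX3CL1 alone the difference was 0.47 (95% interval -0.06 to 1.00, adjusted p = 0.765). The gene lies within PATL2 on the opposite strand, which stayed at or under 0.199 TPM.

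CALR, calreticulin, holds the class I heavy chain in the loading complex, and CANX, calnexin, binds it earlier in folding. PDIA3 encodes ERp57, the oxidoreductase bound to tapasin. CALR ran from 1870.2 to 4048 TPM over the 12 libraries, CANX from 373 to 533 TPM and PDIA3 from 939.7 to 1364 TPM. Their group means differed little: CALR had 2565 ± 603 TPM in No treatment, 2462 ± 209 with CX3CL1, 2951 ± 295 with IFN-γ and 3179 ± 756 with CX3CL1+IFN-γ (SD, n = 3). CANX had 411 ± 51.6, 434 ± 86.9, 379 ± 4.98 and 417 ± 16.5 TPM in the same order. PDIA3 had 1149.6 ± 212, 1199.9 ± 134, 1200.2 ± 105 and 1249.5 ± 98.0 TPM. Libraries of the IFN-γ group and of the CX3CL1 group overlapped with those of No treatment for all 3 genes. With IFN-γ against No treatment, the log2 fold changes were 0.23 for CALR (95% interval -0.19 to 0.65, adjusted p = 0.545), -0.11 for CANX (-0.39 to 0.17, adjusted p = 0.680) and 0.08 for PDIA3 (-0.23 to 0.38, adjusted p = 0.811). With CX3CL1 alone they were -0.03 (-0.45 to 0.39), 0.07 (-0.21 to 0.35) and 0.07 (-0.23 to 0.38), each with an adjusted p of 1.00.

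Within No treatment, the order of mean levels was CALR, B2M, PDIA3, CANX, TAPBP, TAP2, ERAP1, TAP1, TAPBPL and NLRC5. The ranges of CALR and B2M overlapped, as did those of TAP2 with ERAP1, ERAP1 with TAP1, and TAP1 with TAPBPL. With CX3CL1, B2M stood above CALR and TAP1 above ERAP1, both with overlapping ranges. With IFN-γ, B2M was highest with no overlap with CALR, TAPBP stood above CANX, and TAP2 and TAP1 overlapped, as did ERAP1 and TAPBPL. The order with CX3CL1+IFN-γ differed from it only in that TAP1 stood above TAP2, with overlapping ranges. The 10 genes summed to 0.644% ± 0.159 of the library's TPM in No treatment, 0.731% ± 0.0720 with CX3CL1, 1.29% ± 0.154 with IFN-γ and 1.39% ± 0.266 with CX3CL1+IFN-γ (SD, n = 3).

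**Figure D4:**
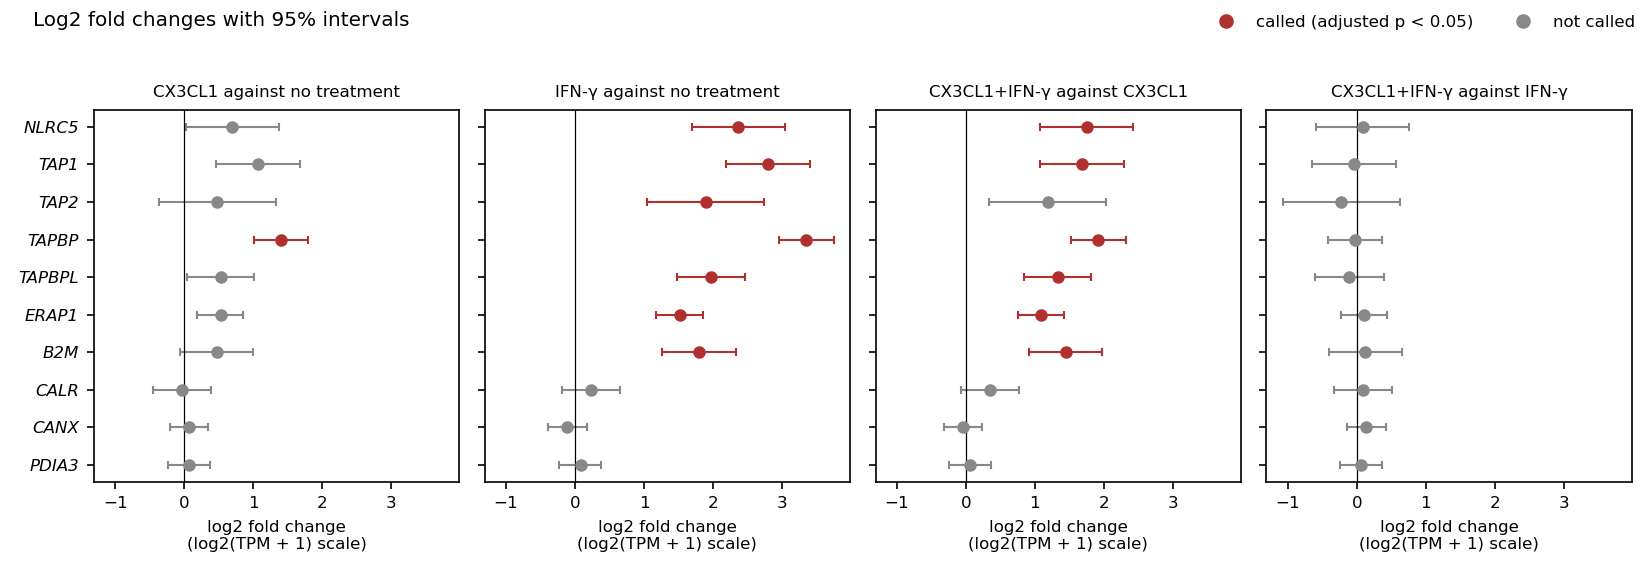
Log2 fold changes of the 10 genes with 95% intervals from limma, in the 4 comparisons between groups, on the log2(TPM + 1) scale. The fit used no replicate block. Red points passed the test and grey points did not: 1 with CX3CL1, 7 with IFN-γ, 6 for the combination against CX3CL1 and 0 for the combination against IFN-γ.

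The 1 of 10 genes called with CX3CL1 alone compares with 1.78% of all genes called higher. The libraries of 4 genes, NLRC5, TAP1, TAPBP and ERAP1, did not overlap with those of No treatment and were higher, against 5.50% of all genes. With IFN-γ against No treatment, 7 of 10 were called higher and the libraries of the same 7 did not overlap, against 5.91% called higher and 20.6% not overlapping over all genes. The median log2 fold change of the 10 genes was 0.50 with CX3CL1 and 1.85 with IFN-γ, against -0.016 and 0.032 over all genes tested. The genes were chosen with earlier results of these data known, so these shares and medians are a description. The calls with IFN-γ were the same 7 under median-ratio scaling and quantile normalization, but among all genes the split of called genes moved from 702 higher and 230 lower to 640 and 351, and to 556 and 536.

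The combination against CX3CL1 alone asked what IFN-γ did in cells that also received CX3CL1. Of the 10, 6 were called higher, against 3.76% of all genes, and the libraries of 7 did not overlap and were higher, against 14.0%. The log2 rises were 1.92 for TAPBP, 1.75 for NLRC5, 1.69 for TAP1, 1.45 for B2M, 1.33 for TAPBPL and 1.09 for ERAP1, with adjusted p-values from 1.4e-04 to 0.00570. TAP2 was 1.19 higher (SE 0.39, 95% interval 0.34 to 2.03, adjusted p = 0.116). With the replicate number as a block, TAP2 was called, at an adjusted p of 3.7e-04, and the count was 7 of 10. The numbers were read as pairing these groups, and the count of 6 comes from the fit with no block. CALR differed by 0.35 (95% interval -0.07 to 0.77), CANX by -0.04 and PDIA3 by 0.06. The split over all genes was 447 higher and 111 lower, 357 and 187 under median-ratio scaling, and 349 and 228 under quantile normalization.

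For CX3CL1+IFN-γ against IFN-γ, which asked what CX3CL1 added to cells under IFN-γ, 0 of 10 genes were called in limma and 0 had an unadjusted p under 0.05. Over all genes, 0.362% were called either way and 4.35% had an unadjusted p under 0.05. The log2 differences ran from -0.23 for TAP2 (95% interval -1.07 to 0.62) to 0.14 for CANX (-0.14 to 0.42), and that of TAPBP was -0.02 (-0.42 to 0.37). TAP1 differed by -0.04 (-0.65 to 0.57), NLRC5 by 0.09 (-0.59 to 0.76) and B2M by 0.12 (-0.41 to 0.65). Libraries of the 2 groups overlapped for 9 of the 10, and the CANX libraries did not, at 404 to 436 TPM against 375 to 385, where 8.54% of all genes did not overlap and were higher. These intervals are from the fit with no block and leave room for differences of either sign. The numbers were read as pairing these groups, and with the block 0 of 10 were called. Between same-numbered libraries, TAP2 and TAPBPL were lower with the combination in every replicate, and B2M, ERAP1, CANX and PDIA3 were higher. TAP1, TAPBP, NLRC5 and CALR went both ways.

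The interaction, the CX3CL1 effect under IFN-γ minus its effect without it, was below 0 for 8 of 10 genes and passed the test for 0 of 10, and for 0 of all genes tested. An unadjusted p under 0.05 was found for 2.30% of all genes and for TAPBP and TAP1 among the members. TAPBP had the largest value at -1.43 (95% interval -1.99 to -0.87, unadjusted p = 1.1e-04, adjusted p = 0.105). Without No treatment replicate 1, the highest TAPBP library of that group, it was -1.64 with an adjusted p of 0.0233. With the replicate number as a block, TAPBP was called at an adjusted p of 0.0225, as were 52 of all genes. The numbers would pair No treatment with CX3CL1 through IFN-γ, while the correlations between these groups themselves show it less clearly. TAP1 had -1.11 (95% interval -1.98 to -0.25, unadjusted p = 0.0158, adjusted p = 1.00).

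The order of the replicates was shared by many members within a group, but was not the same in every group. In No treatment, replicate 1 had the highest value for 9 of the 10 genes and replicate 2 the lowest for 9. With CX3CL1, replicate 2 was lowest for 6 of the 10 and highest for 3, and replicate 1 was highest for 5. With IFN-γ, replicate 2 was lowest for 8 of the 10 and replicate 3 highest for 6, and with CX3CL1+IFN-γ these counts were 6 and 6. NLRC5, TAP1, TAPBP, TAPBPL and ERAP1 had their highest library in replicate 3 of both IFN-γ groups, while B2M and CALR had it elsewhere.

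Other genes of the class I pathway were read from the same fits. Of 9 heavy chain genes in the table, 6 passed the filter, and H2-Q6 and H2-Q7 were listed at 0 in all libraries. All 6 were called higher with IFN-γ (median log2 fold change 2.04), with H2-T23, H2-Q4 and H2-K1 at 2.88, 2.79 and 2.11. With CX3CL1 alone 1 of 6 was called, H2-Q4 at 1.52 (adjusted p = 0.00209), and the median was 0.57. The combination against IFN-γ gave 0 of 6 calls in limma, 0 of 6 at an unadjusted p under 0.05 and a median of -0.09, and against CX3CL1 it gave 6 of 6 and a median of 1.32. CT26 comes from BALB/c mice, whose heavy chain alleles differ from those of the C57BL/6 genome in mm10, and heavy chain genes are close relatives of each other, so their levels are uncertain and the effect of either was not tested.

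The immunoproteasome replaces catalytic subunits of the proteasome and favours peptides that fit class I. All 5 of its genes and activators rose with IFN-γ (median log2 fold change 2.75), led by PSMB9 at 4.92, PSMB8 at 3.77 and PSMB10 at 2.75. With CX3CL1 alone 0 of 5 were called in limma, and the median was 0.76. An unadjusted p under 0.05 in limma was found for 4 of 5, and also for 4 of 6 heavy chains, 5 of 10 members and 1 of 12 regulators. The share over all genes is not given here for that comparison, so these counts are a description. PSMB9 had 7.09 TPM in No treatment, 17.3 with CX3CL1, 244 with IFN-γ and 209.5 with CX3CL1+IFN-γ (group means). Added to IFN-γ, CX3CL1 gave 0 of 5 calls and 0 of 5 at an unadjusted p under 0.05 (median -0.11), and IFN-γ added to CX3CL1 gave 5 of 5 (median 1.83). GENCODE has PSMB9 and TAP1 overlapping by 212 bases on opposite strands, and reads in that stretch could not be assigned here.

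Of 12 regulators of class I genes, 2 were called higher with IFN-γ: IRF1, an interferon regulatory factor, at 2.31 and RFX5, part of the RFX complex with which NLRC5 acts, at 0.78. RFX5 (adjusted p = 0.0321) was not called without any 1 of the No treatment libraries or without IFN-γ replicate 3, with adjusted p-values up to 0.126. With CX3CL1 alone 1 was called, NFKB1, a subunit of NF-kB, at 0.93 (adjusted p = 2.5e-04). NFKB1 was also the 1 regulator called for the combination against IFN-γ, at 0.82 (adjusted p = 0.00151). The combination against CX3CL1 gave 1 call, IRF1 at 1.57. Medians of this list were 0.09 with CX3CL1 and 0.11 with IFN-γ.

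Most other genes of peptide supply and folding did not pass. Of 12 genes of cytosolic and luminal peptide supply, 0 were called with CX3CL1 and 1 with IFN-γ, CTSS at 0.93, which was also the 1 called for the combination against CX3CL1 (1.14). This cathepsin is best known for class II. Its mean level was low, at 0.058 TPM in No treatment, 0.051 with CX3CL1, 1.04 with IFN-γ and 1.35 with CX3CL1+IFN-γ. The 1 TPM added therefore weighs on its log2 values. Of 16 folding genes of the endoplasmic reticulum, 0 were called with CX3CL1 and 1 with IFN-γ, PRKCSH, a glucosidase subunit, at 0.50 (adjusted p = 0.0384), and the medians were 0.03 and 0.06. PRKCSH lost its call without No treatment replicate 2 or 3, CX3CL1 replicate 3, any 1 of the IFN-γ libraries, or CX3CL1+IFN-γ replicate 2 or 3 (adjusted p up to 0.164). In both lists, 0 genes had an unadjusted p under 0.05 with CX3CL1 alone or for the combination against IFN-γ. The limma test called 0 interactions in the 5 lists, with an unadjusted p under 0.05 in 4 of 6 heavy chains, 4 of 5 immunoproteasome genes and 0 of 12 regulators. Their median interactions were -0.68, -0.92 and -0.04.

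**Figure D5:**
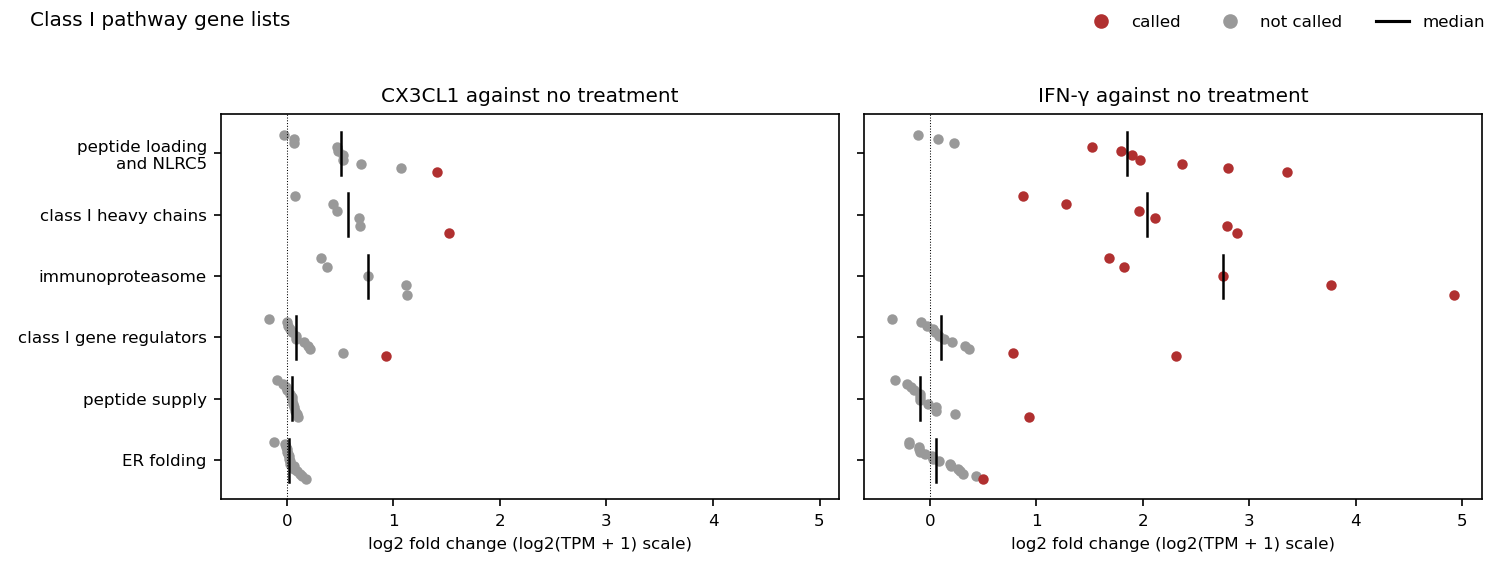
Log2 fold changes of the genes in 6 lists with CX3CL1 (left) and IFN-γ (right) against No treatment. Each point is a gene, red where called and grey where not, and the black line is the list's median. With IFN-γ the medians of the peptide loading genes, heavy chains and immunoproteasome are 1.85, 2.04 and 2.75, and those of the other 3 lists lie between -0.09 and 0.11.

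The genes whose levels followed a member most closely were described by Pearson's r of log2(TPM + 1) over the 12 libraries, which share treatments and scaling. For NLRC5 these were ZNFX1 (r = 0.994), RNF31 (0.991), IIGP1 (0.991), GBP4 (0.990) and IRF1 (0.990). IIGP1 and GBP4 are interferon-inducible GTPases, and GBP4 had 0.855 ± 0.557 TPM in No treatment, 4.03 ± 1.24 with CX3CL1, 47.7 ± 29.9 with IFN-γ and 54.0 ± 26.8 with CX3CL1+IFN-γ. For TAP1 they were MOV10 (0.995), IFI44L (0.995), H2-M3 (0.992), IGTP (0.991) and RNF31 (0.991). MOV10 had 25.8 ± 4.08, 43.8 ± 6.08, 87.8 ± 13.5 and 90.0 ± 14.9 TPM in the same order of groups. For CALR, whose level differed little between the groups, they were MARK4 (0.978), RBM8A (0.962), SNRNP27 (0.944), HSP90AB1 (0.938) and SAMD4B (0.935). HSP90AB1, a cytosolic chaperone, had 5415 ± 495, 5303 ± 247, 5513 ± 360 and 5810 ± 776 TPM.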

How the data were processed

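RNA was sequenced from 12 CT26 libraries, 3 biological replicates in each of 4 groups named by the labels. The labels do not say what replicates share, so p-values measure the spread between these samples. The authors made strand-specific mRNA libraries (Kapa mRNA HyperPrep), aligned reads to mm10 with STAR 2.7.3a in the VIPER pipeline and tested counts with DESeq2 1.22.1. The deposited values are TPM. The annotation, the conversion to TPM and the strand setting are not given in the sources used here, the depth is unknown, and the counts were not used here.

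The members and lists were chosen with earlier results of these data known. The 11878 genes averaging 0.2 TPM or more across the libraries were tested as log2(TPM + 1) with limma 3.58.1 in R 4.3.3 (lmFit, eBayes with trend), all libraries in 1 fit and no block. Adjusted p is by Benjamini-Hochberg within a comparison, two-sided, and intervals are 95%. The fit was tested on simulated data first. Those libraries were drawn independently, with nothing shared by a replicate number, so the simulation could not show whether a fit with no block suits these data. Pandas 2.3.3 prepared the tables.

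Named genes are the 10 members, up to 3 called genes with the largest absolute change per list and comparison, and the 5 genes most like NLRC5, TAP1 and CALR. Lists were class I heavy chains, immunoproteasome, class I gene regulators, peptide supply, ER folding, epithelial and leukocyte markers. A gene of the regulator list is not reported here and was left out of its counts. Alternatives were median-ratio scaling, quantile normalization, another pseudocount (0.1), no filter on low values or one at 1 TPM, eBayes without trend, only the libraries compared, the replicate number as a block, and each library left out in turn, and for named genes outside the members these were added after seeing the data.

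The groups share replicate numbers. Same-numbered libraries deviated together from their group means between No treatment and IFN-γ (correlations across genes 0.429, 0.460 and 0.220), IFN-γ and CX3CL1+IFN-γ (0.630, 0.635 and 0.649) and CX3CL1 and CX3CL1+IFN-γ (0.351, 0.353 and 0.428), so the numbers were read as pairing there. The pairing rests on the data. For CX3CL1 and IFN-γ the correlations were 0.584, 0.361 and 0.226, and 6 of 6 libraries correlated best with their own number. For No treatment and CX3CL1+IFN-γ they were 0.312, 0.447 and 0.032, and 4 of 6 did so. For No treatment and CX3CL1 they were 0.387, 0.005 and 0.301, and again 4 of 6 did so. Numbers that pair No treatment and CX3CL1 each with IFN-γ would also pair them with each other, and the fit with the block would then apply to them. Their own correlations show this less clearly, with 0.005 for replicate 2, and the labels do not say.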

Additional observations from a re-analysis of the deposited data

How the results depend on the processing

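Of 990 values of the members under the alternatives, 984 kept their side of the threshold and 6 newly passed it. These include fits without a library of a group not compared, which could change the error but not the estimate. The sign changed in 31 of them, over 16 member values of which 7 were for the combination against IFN-γ, and in 0 of the 31 was the value called before or after. With the replicate number as a block, the members called with CX3CL1 against No treatment rose from 1 to 2, TAP1 joining (adjusted p = 0.0197), and those called for the interaction from 0 to 1, TAPBP (adjusted p = 0.0225). The numbers would pair the No treatment and CX3CL1 libraries through IFN-γ, while the correlations between these groups themselves show it less clearly. Between No treatment and CX3CL1, 4 of 6 libraries correlated best with their own number, and between each of these groups and IFN-γ 6 of 6 did. Leaving out each library, the CX3CL1 count was 1 to 2, with 2 without No treatment replicate 1 (ERAP1) and 2 without CX3CL1 replicate 2 (TAP1), and the interaction count was 0 to 1, with 1 without No treatment replicate 1 (TAPBP). The counts with IFN-γ (7) and for the combination against IFN-γ (0) were the same in every alternative run, and the combination against CX3CL1 gave 6 or, with the block, 7. The block changed 3 member calls: TAP1 with CX3CL1, TAPBP for the interaction and TAP2 for the combination against CX3CL1. Of 22 calls named from the other lists, 19 were kept in every alternative that tested the gene (CTSS was not tested at the filter of 1 TPM). Those of RFX5, PRKCSH and KRT18 with IFN-γ were not, and they were also lost without the filter. RFX5 and PRKCSH lost theirs under quantile normalization as well, and RFX5 with only the libraries compared.

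Counts over all genes moved more. The block raised them from 232 to 455 with CX3CL1, 932 to 1929 with IFN-γ, 43 to 95 for the combination against IFN-γ, 558 to 1369 against CX3CL1 and 0 to 52 for the interaction. Fits of only the libraries compared gave 20 and 344 for both combination comparisons, no filter gave 28 against IFN-γ, and quantile normalization gave 1 for the interaction. Leaving out a library gave 152 to 268, 530 to 1499, 16 to 54, 270 to 668 and 0 to 11 in that order of comparisons. The split of called genes with IFN-γ was 854 higher and 437 lower with only the libraries compared, and with the block the share called higher with CX3CL1 was 76.3% against 91.4%. The cause was not tested. The interaction could not be fitted with only the libraries compared. TPM carry no depth, so the precision of low genes such as NLRC5 rests on the spread between libraries. That spread was pooled over the 4 groups of 3 and combined with the trend over all genes.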
